A study of Mus musculus with 6 samples.

Results

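The surface markers of multipotent progenitors were read in mouse bone marrow stem cells sorted into Lower-SP and Upper-SP fractions. Both lie in the side population, the cells that stain weakly with a DNA-binding dye because they export it, and Lower-SP cells occupy the lower part of that region. The members are the 9 genes Flt3, Cd34, Cd48, Cd27, Tnfrsf18, Emb, Cd53, Ptprc and Cd69, taken as every probe set whose single gene symbol is one of these names. They have 13 probe sets among the 45037 on the array. Of these, 11 probe sets of 8 genes had signal above the level used for testing, a log2 value of 4 on at least 3 arrays, out of 19613 probe sets and 9460 genes in all. Each of these 11 exceeded that level on all 6 arrays, so none was admitted through one group alone.

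Both groups are Lineage- Sca-1+ c-Kit+ bone marrow cells of male C57Bl/6 (CD45.1) mice aged 10 weeks, without further treatment, and they differ in the gate. Cells were pooled from several mice, and each group has 3 arrays from 3 biological replicates. The series text gives 3 pools sorted on separate days. It does not say whether a replicate number marks a shared pool or day in both fractions. Precision is set by this number of arrays. Differences subtract the Upper-SP mean from the Lower-SP mean of log2 values, errors of means are SD over the 3 arrays, and adjusted p values come from limma over all tested probe sets.

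As stem cells of mouse bone marrow become multipotent progenitors they lose long-term self-renewal and change their surface. Cd34 and Flt3, the receptor for Flt3 ligand, are gained, and Cd27 and Cd48 appear or increase, so that sorting schemes separate stem cells from progenitors by these proteins. The remaining members are carried by many leukocytes: Ptprc is CD45, Cd53 is a tetraspanin, Emb is an adhesion protein, and Tnfrsf18 (GITR) and Cd69 are best known from activated lymphocytes. Set against the label, Flt3 and Cd34 were well above the level for testing in both fractions, Cd27 was dim in both, and Cd48 lay under log2 4 in all 6 samples.

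Lower-SP cells carried less transcript of 6 of the 8 measurable genes. Flt3, Cd34, Cd27, Tnfrsf18, Emb and Cd53 had differences of -2.22 to -0.96 at their brightest probe set, while Ptprc and Cd69 were not called there. Among all 9460 genes 20.7% were called lower and 7.05% higher at the brightest probe set. At the level of probe sets, 7 of the 11 members were lower, 1 was higher and 3 were not called, where 17.5% of all tested probe sets were lower and 10.7% higher. By at least 2-fold 5 member probe sets were lower, a class that held 8.04% of all tested probe sets. The members were chosen with earlier results of these data known, so these shares give scale and do not test the set. The median difference of the 11 was -0.96, and that of all tested probe sets was -0.14. Scaling by cyclic loess moved the median of all tested probe sets to -0.03 and the share of higher calls among all changed probe sets to 51.5%, against 37.9% with the deposited scaling, and left the calls of the member probe sets at 7 lower and 1 higher. Without Upper-SP replicate 1 the member probe sets called lower numbered 4, where 3.98% of all tested probe sets were lower. All changed probe sets then numbered 1666, against 5520 with all arrays. In RNA from whole samples, fewer cells that carry a transcript and less transcript per cell cannot be told apart.

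**Figure D1:**
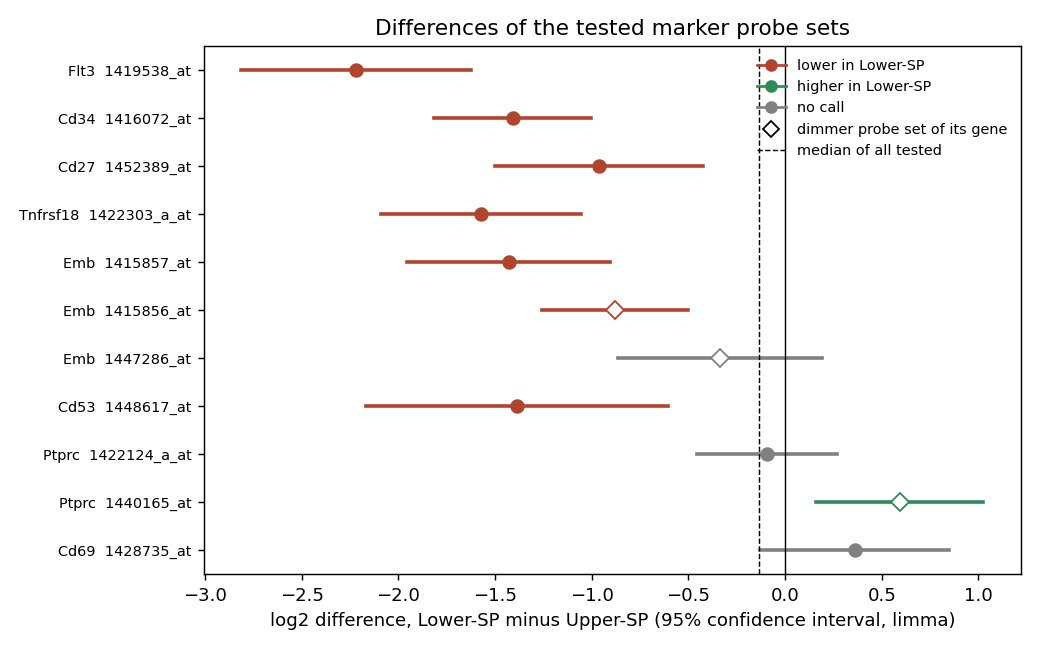
Log2 difference, Lower-SP minus Upper-SP, of the 11 tested marker probe sets (points) with 95% confidence intervals from limma (lines), filled where the probe set is the brightest of its gene, and the median of all 19613 tested probe sets (dashed line). The 7 probe sets called lower have intervals wholly under that median, from Flt3 at -2.22 to an Emb probe set at -0.88, and a Ptprc probe set at 0.59 is the only one called higher.

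Flt3 is the receptor tyrosine kinase whose gain marks lymphoid-primed progenitors. Its single probe set, 1419538_at, read 8.70, 8.76 and 7.82 on the Lower-SP arrays, against 10.74, 10.65 and 10.56 on the Upper-SP arrays. The groups were separated by a gap of 1.79, the widest of any member, and Lower-SP replicate 3 was the lowest array. The difference was -2.22 (SE 0.26, 95% confidence interval -2.81 to -1.63, adjusted p = 0.0025), a 4.66-fold lower signal. Only 0.27% of all tested probe sets fell by as much. Flt3 kept its call without any single array and under each of its 17 alternatives, with differences of -2.83 to -1.92.

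Cd34 is a sialomucin whose appearance in adult mouse marrow accompanies the loss of long-term repopulation. Probe set 1416072_at read 8.92, 8.76 and 8.62 in Lower-SP cells and 10.23, 10.38 and 9.92 in Upper-SP cells, with no overlap. The difference was -1.41 (SE 0.17, adjusted p = 0.0030), 2.66-fold, and 3.10% of all tested probe sets fell by as much. Lower-SP replicate 3 was again the lowest array, by less than for Flt3. Its call held under all 17 alternatives.

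Tnfrsf18 and Cd27 are receptors of the tumor necrosis factor family, which signal through TRAF adaptors to NF-kappa-B. Tnfrsf18 (1422303_a_at) read 6.53, 6.76 and 6.61 in Lower-SP cells, against 8.38, 8.37 and 7.85 in Upper-SP cells. Its difference, -1.57 (SE 0.22, adjusted p = 0.0042), was second to Flt3 among the members, and it held under all 17 alternatives. Cd27 (1452389_at) was dim in both fractions, with 4.96, 4.74 and 5.06 in Lower-SP cells and 5.99, 6.06 and 5.60 in Upper-SP cells. Its arrays did not overlap, and the difference was -0.96 (SE 0.23, interval -1.50 to -0.42, adjusted p = 0.020). The call for Cd27 was lost without Lower-SP replicate 1 (adjusted p = 0.052), Lower-SP replicate 2 (0.070), Upper-SP replicate 1 (0.094) or Upper-SP replicate 2 (0.077).

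Emb, or embigin, is an immunoglobulin-family adhesion protein that escorts monocarboxylate transporters to the surface. At its brightest probe set, 1415857_at, it read 8.14, 8.26 and 8.52 in Lower-SP cells and 9.94, 9.97 and 9.30 in Upper-SP cells, a difference of -1.43 (SE 0.23, adjusted p = 0.0056). A second probe set drawn from the same source sequence, 1415856_at, read 8.50, 8.61 and 8.44 in Lower-SP cells and 9.59, 9.28 and 9.32 in Upper-SP cells. That probe set differed by -0.88 (SE 0.16, adjusted p = 0.0085), so both fell, and since they share a target they are not independent evidence. The dimmest, 1447286_at, stayed near the level for testing and overlapped between groups, with 4.20, 4.29 and 4.20 in Lower-SP cells and 4.91, 4.25 and 4.54 in Upper-SP cells (difference -0.34, adjusted p = 0.30, or 0.042 with array weights). Without Upper-SP replicate 1 the second probe set did not pass (adjusted p = 0.054). With Lower-SP replicate 3 as the only Lower-SP array the differences were -1.21 for 1415857_at and -0.96 for 1415856_at, without a Lower-SP spread to judge them by (adjusted p = 0.068 and 0.053).

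**Figure D2:**
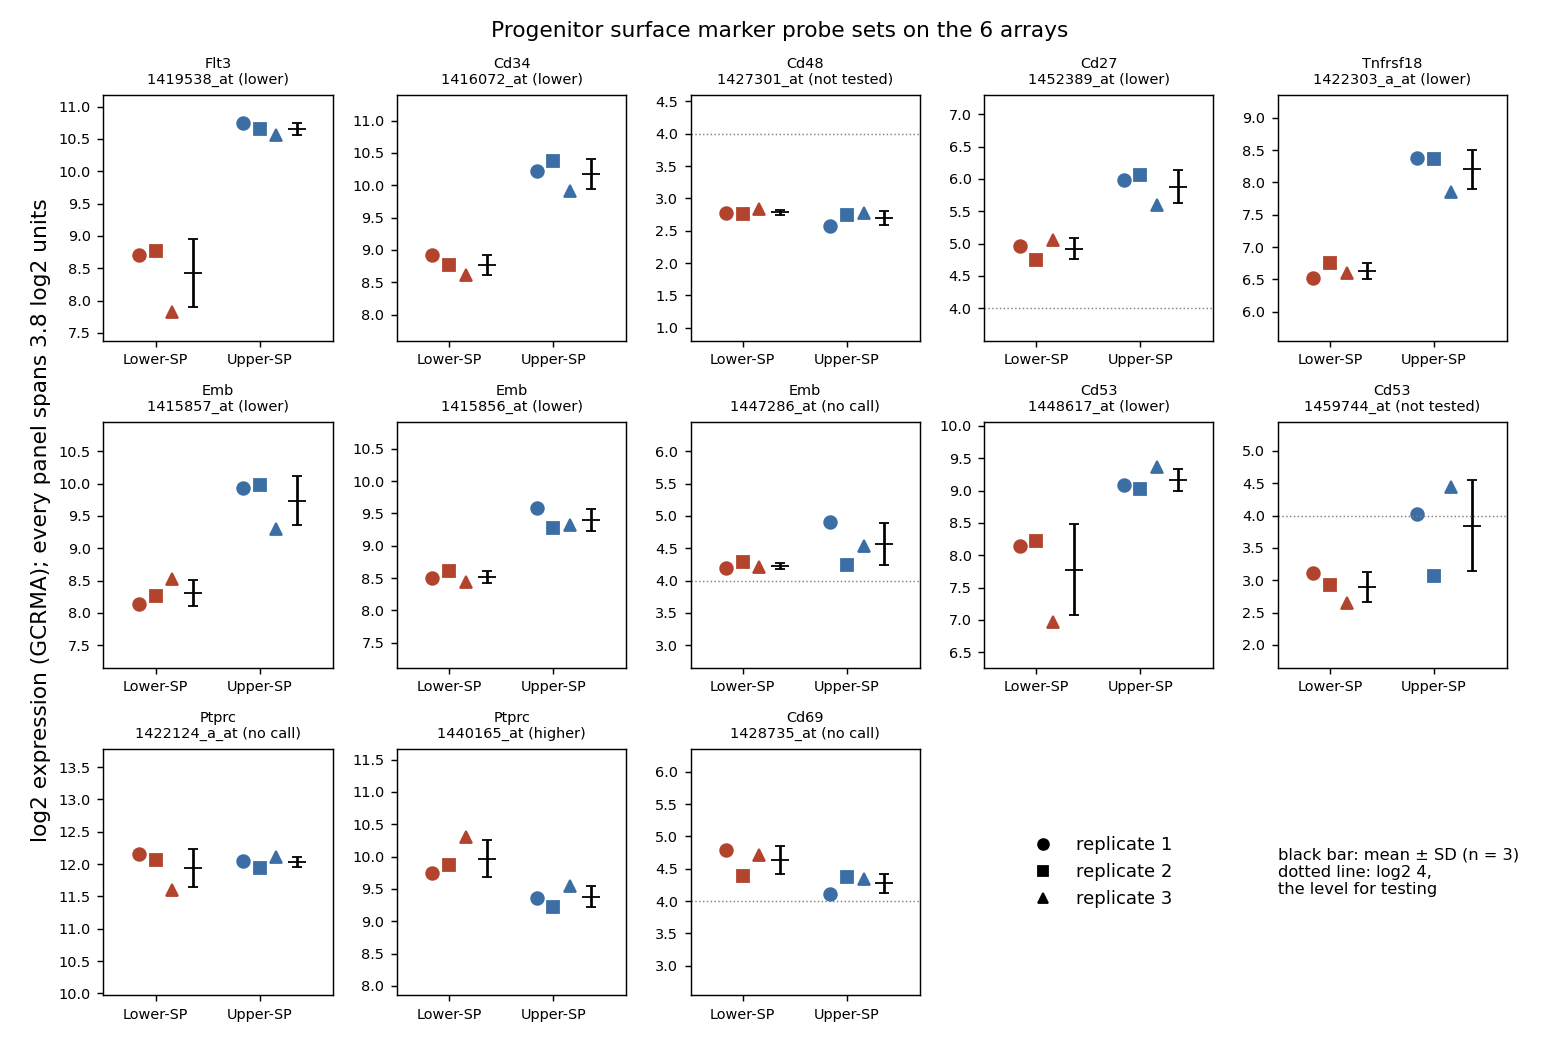
Log2 expression of the 13 marker probe sets on each array (circle, square and triangle for replicates 1, 2 and 3), with Lower-SP left of Upper-SP, the mean ± SD (black), and the level for testing at log2 4 (dotted). Every panel spans the same height. In 7 probe sets, among them those of Flt3, Cd34, Tnfrsf18 and Cd27, every Lower-SP array lies under every Upper-SP array. In 2, the dimmer Ptprc probe set and Cd69, every Lower-SP array lies above. Cd48 reaches no more than 2.83 on any array, and Lower-SP replicate 3 stands low for Flt3 and Cd53.

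Cd53 is a tetraspanin of leukocyte membranes. Probe set 1448617_at read 8.14, 8.22 and 6.96 in Lower-SP cells and 9.09, 9.03 and 9.36 in Upper-SP cells. The groups did not overlap, and Lower-SP replicate 3 lay more than 1 log2 unit under the other Lower-SP arrays. The difference was -1.39 (SE 0.34, interval -2.17 to -0.60, adjusted p = 0.021). The call was lost with no filter and without any one Upper-SP array, where the adjusted p was 0.080 without replicate 1 and 0.059 without replicate 2 or 3. With Lower-SP replicate 3 as the only Lower-SP array the difference was -2.20. A second Cd53 probe set, 1459744_at, was not tested because only 2 arrays, both Upper-SP, exceeded log2 4. It read 3.11, 2.93 and 2.65 in Lower-SP cells and 4.03, 3.06 and 4.45 in Upper-SP cells.

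Ptprc encodes CD45, the phosphatase of nearly all blood cells that activates Src-family kinases. Its brightest probe set, 1422124_a_at, read 12.16, 12.07 and 11.60 in Lower-SP cells, against 12.05, 11.95 and 12.11 in Upper-SP cells. The groups overlapped, and the difference of -0.09 had an interval of -0.46 to 0.27 (adjusted p = 0.68), so a change of 2-fold lies outside the interval. The sign turned to 0.10 with cyclic loess. The dimmer probe set 1440165_at, which is not annotated to a RefSeq mRNA, read 9.74, 9.87 and 10.30 in Lower-SP cells and 9.36, 9.23 and 9.55 in Upper-SP cells. It was called higher by 0.59 (SE 0.19, adjusted p = 0.049), just inside the threshold. That call was lost without Lower-SP replicate 1 (adjusted p = 0.054), 2 (0.096) or 3 (0.084) and without Upper-SP replicate 1 (0.15) or 2 (0.15), and with no filter, no trend or the replicate block. On Lower-SP replicate 3 the 2 Ptprc probe sets moved apart, to the lowest value of 1 and the highest of the other.

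Cd69, a C-type lectin of early lymphocyte activation, was dim, with 4.80, 4.39 and 4.72 at 1428735_at in Lower-SP cells and 4.11, 4.37 and 4.34 in Upper-SP cells. The groups missed each other by 0.02, and the difference of 0.36 (SE 0.21, interval -0.13 to 0.85, adjusted p = 0.23) was not called. Cd48 (1427301_at), the SLAM-family ligand that defines restricted progenitors, read 2.77, 2.76 and 2.83 in Lower-SP cells and 2.57, 2.74 and 2.78 in Upper-SP cells. All of these values lie under the level for testing, and no fold is given.

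Among the tested members, 7 probe sets had every Lower-SP array under every Upper-SP array, 2 had every Lower-SP array above, and 2 overlapped. In all tested probe sets the shares were 27.9% and 18.2%, 46.1% in sum. Of the 4 member probe sets annotated to a RefSeq mRNA (Flt3, Cd34, Cd53 and the brightest of Ptprc) 3 were lower, where 26.7% of the 2800 tested probe sets of that kind were. The arrays within a group did not run in a common order over the members. Upper-SP replicate 3 was the lowest Upper-SP array for 5 of the 7 lowered probe sets, as it was for 69.5% of all lowered probe sets. Lower-SP replicate 3 was the lowest Lower-SP array for 4 of the 7, against 34.9% of all lowered probe sets.

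**Figure D3:**
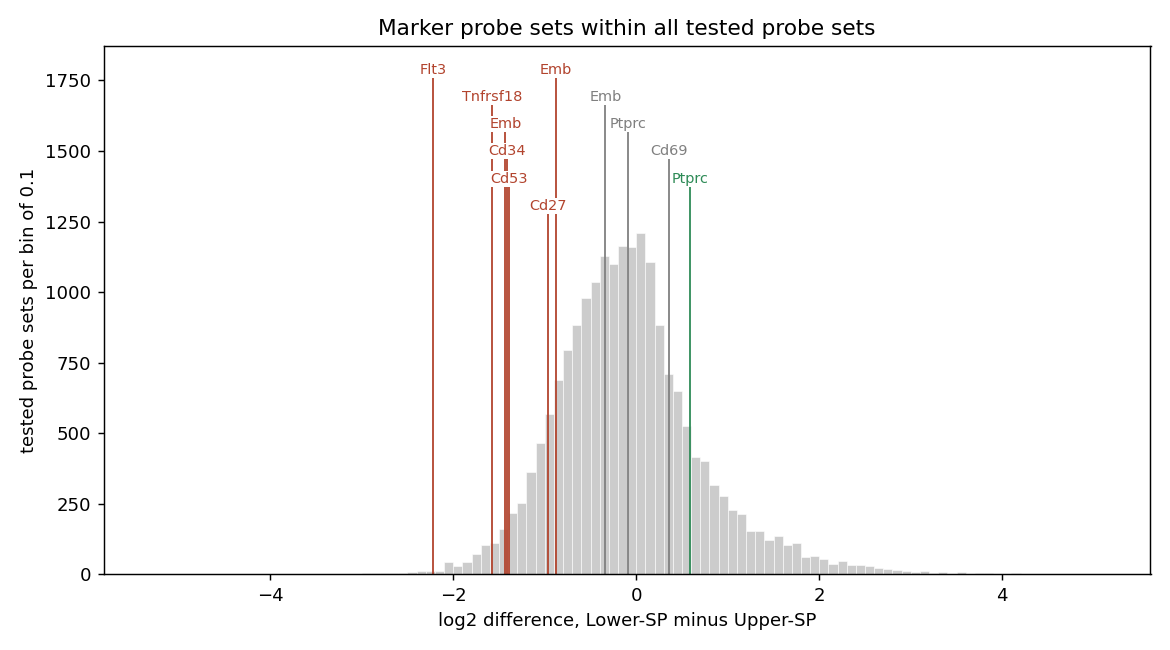
Histogram of the log2 differences, Lower-SP minus Upper-SP, of all 19613 tested probe sets in bins of 0.1 (grey bars), with a vertical line for each of the 11 tested marker probe sets (red lower, green higher, grey not called). Flt3 stands in the left tail, where 0.27% of probe sets fell by as much, and the Cd34, Emb and Cd53 lines at -1.43 to -1.39 lie close together.

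The promoters show what letters precede the genes that fell. The 250 bases before the annotated start of the 4 genes with the largest falls are shown, from RefSeq on GRCm38.p6, on the gene's strand, 5' to 3'. Capitals mark matches on either strand to GAGGAA, the core of ETS sites, to TGTGGT, the core of RUNX sites, to the E-box CANNTG, to GATAAG, bound by GATA factors, or to the Sp1 box GGGCGG, and overlapping matches were each counted.
Flt3, chr5:147400490-147400739, minus strand: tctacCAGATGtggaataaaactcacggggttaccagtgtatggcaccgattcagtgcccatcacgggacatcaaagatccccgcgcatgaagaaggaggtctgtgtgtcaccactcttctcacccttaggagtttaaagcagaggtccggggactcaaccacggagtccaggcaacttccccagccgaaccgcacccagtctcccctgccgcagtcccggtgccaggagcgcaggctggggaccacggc
Cd34, chr1:194938571-194938820, plus strand: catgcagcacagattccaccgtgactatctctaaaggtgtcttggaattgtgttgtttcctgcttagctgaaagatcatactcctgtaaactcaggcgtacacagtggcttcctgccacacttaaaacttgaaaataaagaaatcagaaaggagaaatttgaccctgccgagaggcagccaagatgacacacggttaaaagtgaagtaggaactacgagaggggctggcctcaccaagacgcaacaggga
Tnfrsf18, chr4:156026072-156026321, plus strand: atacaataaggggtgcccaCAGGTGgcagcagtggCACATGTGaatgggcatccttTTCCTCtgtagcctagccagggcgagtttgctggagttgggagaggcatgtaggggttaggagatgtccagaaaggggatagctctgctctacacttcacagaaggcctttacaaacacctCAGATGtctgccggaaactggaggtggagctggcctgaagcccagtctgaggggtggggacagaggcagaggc
Emb, chr13:117220323-117220572, plus strand: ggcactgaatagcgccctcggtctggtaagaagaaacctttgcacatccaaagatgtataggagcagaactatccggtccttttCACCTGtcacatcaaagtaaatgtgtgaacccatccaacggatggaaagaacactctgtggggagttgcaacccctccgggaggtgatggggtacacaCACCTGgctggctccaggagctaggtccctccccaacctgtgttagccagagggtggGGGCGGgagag
Of all 32851 promoter windows of this length, 66.2% held CANNTG, 32.7% GGGCGG, 23.3% GAGGAA, 14% TGTGGT and 6.55% GATAAG. The Flt3 window held 1 CANNTG, the Tnfrsf18 window 4 CANNTG and 1 GAGGAA, and the Emb window 2 CANNTG and 1 GGGCGG, the GGGCGG lying 6 bases before the start. The Cd34 window held 0 matches to any of the 5, and no motif was present in all 4 windows. Of the 9 genes 8 had a promoter entry, and Cd69 is named only. The windows of Flt3, Tnfrsf18, Emb and Cd27 had 54.8% to 59.2% GC, those of Cd34, Cd48 and Cd53 had 46.4%, 46% and 45.2%, and the 2 windows of Ptprc had 31.6% and 36.8%. The median of all windows was 52.4%.

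The genes with the array profile most like that of a member were taken as those with the smallest root mean square difference between mean-centred log2 profiles over the 6 arrays. For Flt3 these were Plppr3 (0.17), Tmem74 (0.18) and Prrg2 (0.19) out of 9459 genes. The place of Tmem74 rests on Lower-SP values under log2 4 (3.34, 3.24 and 2.80). With such values set to 4, a setting chosen after seeing the data, it fell to place 158 (0.52) and Gpr89 (0.22) took the third place, while those of Plppr3 and Prrg2 were 1 and 2. Plppr3 differed by -2.13, Prrg2 by -1.99 (lost without Upper-SP replicate 1, adjusted p = 0.054), and Tmem74 was at least 2.64-fold lower. For Cd34 they were Trp53inp2 (0.089, difference -1.36), 4933439C10Rik (0.10, -1.35) and Nudcd3 (0.10, -1.48). Among members, Cd53 was nearest to Flt3 (0.45, place 96) and Tnfrsf18 nearest to Cd34 (0.16, place 48). The profiles share 6 arrays and a split by fraction, so any lowered gene is alike to some degree.

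Other surface molecules of progenitors also included lowered genes. Of 12 tested, 5 were lower and 1 higher, and the list's median was -0.69, against -0.24 for all genes. Among all genes 20.7% were called lower and 7.05% higher, shares to be read beside every list below. Of all tested probe sets 17.5% were lower with all arrays. Without replicate 1, 2 or 3 of Lower-SP that share was 11.5%, 8.7% or 20.1%, and of Upper-SP 3.98%, 7.18% or 19%. The number of all probe sets called higher, 2090 with all arrays, was 1441, 1408, 2455, 885, 1215 and 2051 in that order. List counts with arrays left out are to be read beside these. These lists too were chosen with earlier results of these data known. Il1r1, the interleukin-1 receptor, fell by 2.38 (SE 0.30, adjusted p = 0.0032). It averaged 4.73 ± 0.53 in Lower-SP cells and 7.12 ± 0.13 in Upper-SP cells. The costimulatory ligand Cd86 fell by 1.36 (8.10 ± 0.24 in Lower-SP, 9.46 ± 0.18 in Upper-SP), and the tetraspanin Cd37 fell by 1.16. A dimmer Cd37 probe set differed by -0.89 without passing, and Cd44, not called at its brightest probe set, was lower at another (-0.59). Csf1r, the receptor of macrophage colony-stimulating factor, rose by 1.06 (7.57 ± 0.45 in Lower-SP, 6.51 ± 0.07 in Upper-SP), a call lost without replicate 1 or 2 of either group (adjusted p = 0.065 to 0.084). Without Lower-SP replicate 2, Upper-SP replicate 1 or Upper-SP replicate 2 the list had 3 lower and 0 higher, and without Lower-SP replicate 3 it had 2 higher. The lymphoid receptor Il7r, like Ccr7, Ly6d, Cd33, Fcgr3 and Cd244a, was too dim to be tested.

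Genes of lymphoid-primed progenitors other than surface receptors went both ways, with 4 of 13 lower, 2 higher and a median of -0.30. The leukocyte actin-binding protein Lsp1 fell by 1.63 (8.87 ± 0.15 in Lower-SP, 10.49 ± 0.47 in Upper-SP), Wfdc17 fell by 1.67, and Tcf3, which encodes an E protein, fell by 1.17. The Tcf3 call was lost without replicate 1 or 2 of either group (adjusted p = 0.078 to 0.13). Satb1, a chromatin organizer, rose by 1.87 at its brightest probe set (9.40 ± 0.17 in Lower-SP, 7.53 ± 0.68 in Upper-SP), although a dimmer one was called lower (-0.73) and the other 3 were not called. Dntt, Rag1 and Rag2, which act in antigen receptor rearrangement, were too dim to be tested. Without replicate 1 or 2 of either group the list had 2 lower and 1 higher. At probe sets other than the brightest Sox4 was lower (-1.09) and Bcl11a (1.17) and Ets1 (1.15) were higher, none of which was called at its brightest.

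Relatives and signalling partners of Flt3 were split evenly, with 4 of 22 lower and 4 higher and a median of 0.13. Kit, the stem cell factor receptor and a relative of Flt3 in structure, fell by 0.92 at its brightest probe set (8.02 ± 0.18 in Lower-SP, 8.94 ± 0.25 in Upper-SP) and differed by -0.04 at another. Stat5b, a transducer of cytokine receptors, fell by 0.91. Pik3r1, the regulatory subunit of phosphoinositide 3-kinase, rose by 1.40 (9.35 ± 0.23 in Lower-SP, 7.94 ± 0.10 in Upper-SP, adjusted p = 0.0033), with 1.20 at a dimmer probe set that did not pass, and Csf1r rose as above. The kinase Syk, also counted as higher, rose by 0.70 at the brightest of its probe sets, while 2 others were lower (-0.81 and -1.45), so its direction depends on the probe set. Pik3ca, not called at its brightest, was higher at another (1.12). The Kit call was lost without Lower-SP replicate 2, Upper-SP replicate 1 or Upper-SP replicate 2 (adjusted p = 0.052, 0.076 and 0.060), and that of Stat5b without Lower-SP replicate 1 or Upper-SP replicate 1 or 2 (0.066, 0.10 and 0.088). When Upper-SP replicate 1 was left out the list had 0 lower and 1 higher, and when Upper-SP replicate 2 was left out 1 each way. Leaving out Lower-SP replicate 1 gave 2 lower and 1 higher, and leaving out Lower-SP replicate 2 gave 2 each way.

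In the tumor necrosis factor receptor family and its TRAF signalling genes, 2 of 17 were lower and 1 higher, with a median of -0.11. Tnfrsf1b, a receptor for tumor necrosis factor itself, fell by 1.30 (7.93 ± 0.19 in Lower-SP, 9.23 ± 0.42 in Upper-SP), which was lost without Upper-SP replicate 1 (adjusted p = 0.054). The NF-kappa-B subunit Rela fell by 0.76 (10.88 ± 0.11 in Lower-SP, 11.64 ± 0.19 in Upper-SP). The adaptor Traf1 rose by 1.65 (10.60 ± 0.03 in Lower-SP, 8.95 ± 0.46 in Upper-SP, adjusted p = 0.0038), while its dimmer probe set differed by -0.67 without passing. Without Upper-SP replicate 1 the list had 1 lower, without Lower-SP replicate 3 or Upper-SP replicate 3 it had 4, and without Lower-SP replicate 2 or 3 it had 2 higher, as with cyclic loess. Cd70, the ligand of Cd27, was too dim to be tested.

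Tetraspanins, the family of Cd53, had 9 of 15 tested genes lower and 0 higher, with a median of -0.80 (8 lower with cyclic loess). Among the 9 is Tspan17, which passed the filter through Upper-SP arrays alone. With values under log2 4 set to 4 the number lowered was 8. Tspan31 fell by 1.26 (9.27 ± 0.34 in Lower-SP, 10.53 ± 0.17 in Upper-SP) and by 1.08 at a second probe set. Tspan6 fell by 2.21 at its brightest probe set and differed by -0.35 at another. Tspan17 read 2.98, 2.67 and 2.78 in Lower-SP cells, all under log2 4, and 4.49, 4.03 and 6.34 in Upper-SP cells. Its signal was at least 1.94-fold lower by that level, or at least 1.20-fold without Upper-SP replicate 3, and it was not called once values under log2 4 were set to 4 (adjusted p = 0.20). Cd37 is in this family too, and Tspan13, not called at its brightest probe set, was lower at another (-0.70). Without Upper-SP replicate 1 the number lowered was 3, where 3.98% of all tested probe sets were lower. It was 5 without Lower-SP replicate 2 (8.7% of all tested probe sets lower) or Upper-SP replicate 2 (7.18%). The calls of Tspan6 (adjusted p = 0.068 and 0.053 without Upper-SP replicates 1 and 2) and of Tspan17 (0.055, 0.074 and 0.065 without Lower-SP replicates 1 and 2 and Upper-SP replicate 1) were among those lost.

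**Figure D4:**
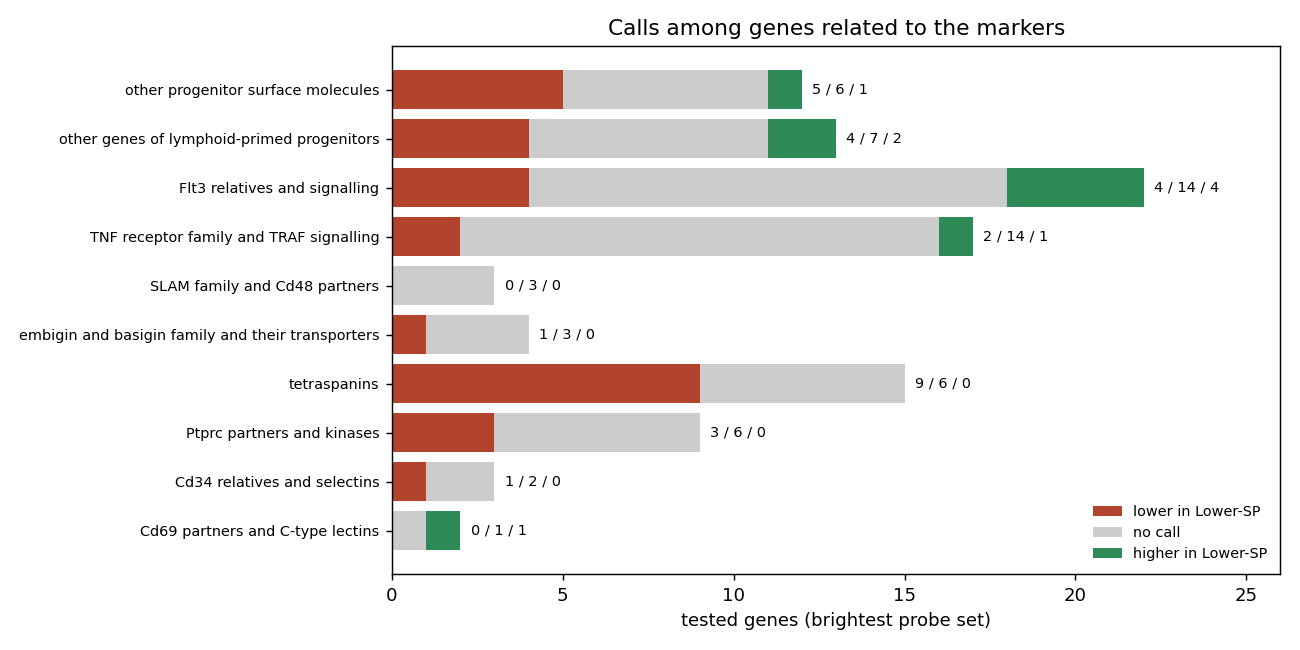
Number of tested genes in each list of genes related to the markers, read at the brightest probe set, split into lower in Lower-SP (red), not called (grey) and higher in Lower-SP (green), with the 3 counts in that order beside each bar. Tetraspanins have 9 lower of 15 and no higher, and the relatives and signalling partners of Flt3 have 4 each way of 22. Among all genes 20.7% were called lower and 7.05% higher.

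Of 9 tested partners and kinases of Ptprc, 3 were lower and 0 higher. The phosphatase Ptpn6 (SHP-1) fell by 1.21, with -0.29 at another probe set that did not pass. Another phosphatase, Ptpre, fell by 0.58 (and fell by 0.75 at another probe set), and Ptprcap, the CD45-associated protein, fell by 0.46. The calls of Ptpre and Ptprcap at these probe sets were lost with cyclic loess, quantile normalization and centring, which left 1 gene lower in the list, and both were lost without replicate 1 of either group or Lower-SP replicate 2 (adjusted p = 0.081 to 0.17). Ptprcap was also lost without Upper-SP replicate 2 (0.13) and Ptpre without Upper-SP replicate 3 (0.074). Ptpn6 was lost without Upper-SP replicate 1 (0.060), where 0 of this list were lower, and 1 was lower without Lower-SP replicate 1 or 2. Of the 3 tested Cd34 relatives and selectin genes, Selplg, the P-selectin ligand, fell by 1.41 (lost without Upper-SP replicate 1, adjusted p = 0.062), and Podxl, a sialomucin related to Cd34, differed by -0.56 (adjusted p = 0.12).

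Of 4 genes related to embigin, basigin (Bsg) fell by 1.52 (5.20 ± 0.71 in Lower-SP, 6.72 ± 0.69 in Upper-SP, adjusted p = 0.042), a call lost with cyclic loess and without any single array other than Upper-SP replicate 3 (adjusted p = 0.056 to 0.15), while without Upper-SP replicate 3 the list had 2 lower. The transporter Slc16a7 differed by -0.86 (adjusted p = 0.075), and the basigin relative Nptn, not called at its brightest probe set, was higher at another (1.21). Of the SLAM family and Cd48 partners only 3 of 11 were bright enough, and 0 passed in limma, Ly9 being nearest (-1.06, adjusted p = 0.061), although 2 of the 3 had an unadjusted p under 0.05. Ly9 read 2.71, 3.08 and 4.14 in Lower-SP cells, and with values under log2 4 set to 4 its difference was -0.32 (adjusted p = 0.17). Cd84, not called at its brightest probe set, was higher at another (0.83). Without Lower-SP replicate 3, 2 of these were lower. Of 2 tested Cd69 partners S1pr1, the sphingosine-1-phosphate receptor that the Cd69 protein binds and removes from the surface, rose by 2.29. It read 7.23 ± 0.22 in Lower-SP cells and 4.94 ± 0.19 in Upper-SP cells (SE 0.23, 4.90-fold, adjusted p = 0.0018), and the call held without any single array. The platelet lectin Clec1b differed by -0.95 (adjusted p = 0.083).

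Of 10 tested stem cell genes 2 were lower and 1 higher, near the shares of all genes (20.7% lower and 7.05% higher). The higher one, Ctnnal1, rose by 1.44 (6.99 ± 0.74 in Lower-SP, 5.55 ± 0.10 in Upper-SP, adjusted p = 0.025 in limma). The list averaged 9.16 to 9.24 on Lower-SP arrays and 9.16 to 9.35 on Upper-SP arrays. Abcg2, the main dye transporter, fell by 1.04 (SE 0.16). Hlf, a transcription factor gene, had a difference of 0.007 at the brightest of its probe sets, but another was called lower (-2.03, adjusted p = 0.0016). Procr differed by -0.05 and Slamf1 by -0.05, with signs that changed between settings. Slamf1 read 4.14 to 5.61 over the arrays, near the level for testing. Transcripts of neutrophils were present on some arrays: 8 of 13 annotated neutrophil markers were tested, 4 were higher and 1, the protease gene Prtn3, was lower (-0.60, 11.47 in Lower-SP, 12.07 in Upper-SP), and the 8 had a mean log2 level of 10.38, 9.85 and 6.65 on Lower-SP arrays and 6.30, 6.58 and 5.26 on Upper-SP arrays. Of the 4 that were higher, Chil3 and Lcn2 passed the filter through Lower-SP arrays alone. Both enter this count and the means, and all of their Upper-SP values lie under log2 4. The granule genes Elane and Mpo were too dim to be tested. The number of higher neutrophil markers was 7 when Lower-SP replicate 3 was left out, 2 when Lower-SP replicate 1 or Upper-SP replicate 3 was, 1 when Upper-SP replicate 2 was, and 0 when Lower-SP replicate 2 or Upper-SP replicate 1 was. S100a8 read 13.19, 12.60 and 9.16 in Lower-SP cells and 7.62, 7.87 and 6.95 in Upper-SP cells. Neutrophils carry Ptprc and Cd53. The neutrophil markers were higher on Lower-SP replicates 1 and 2 than on replicate 3. So were Flt3, Cd34, Cd53, the second Emb probe set and the brightest Ptprc probe set. The brightest Emb probe set, Cd27 and the dimmer Ptprc probe set were instead highest on Lower-SP replicate 3 within their group. The part of neutrophils in the differences was not tested. On Lower-SP replicate 3 alone (n = 1, so that only the Upper-SP arrays give a spread) the differences from the Upper-SP mean were -2.83 for Flt3, -1.56 for Cd34, -1.60 for Tnfrsf18, -2.20 for Cd53 and -0.82 for Cd27. Plasma cell transcripts ran the other way. The heavy chain gene Igha read 9.40, 8.99 and 4.70 in Lower-SP cells and 12.43, 12.60 and 11.31 in Upper-SP cells (-4.42), with -4.19 and -3.70 at 2 further probe sets that were called lower. The 2 tested plasma cell markers, Igha and Jchain, had a mean log2 level of 7.48, 7.07 and 3.54 on Lower-SP arrays and 9.26, 9.59 and 8.60 on Upper-SP arrays. Both genes averaged lower in Lower-SP cells, Jchain without a call (-1.82, adjusted p = 0.11 in limma). Jchain read 2.38 on Lower-SP replicate 3, under log2 4. Both genes were lowest on Lower-SP replicate 3, as were 4 of the 7 lowered member probe sets and 34.9% of all lowered probe sets. The part of plasma cells in the differences was not tested either. Of 10 B cell markers 2 were tested and 0 called in limma (0 at an unadjusted p under 0.05), and of 10 T and NK cell markers 2 were tested and Nkg7 was lower (not called without Upper-SP replicate 1 or 2), while Cd3e, Cd4, Cd8a and Pax5 were too dim to be tested. Of 3 tested monocyte markers Csf1r was higher, as above, while Lyz2 (-0.67) and Cd14 (-0.61) differed the other way without a call. Of 4 tested megakaryocyte markers Gp1bb was higher, but it passed the filter through Lower-SP arrays alone. Pf4 (-0.25), Gp9 (-0.51) and Itga2b (0.04) were not called. Of 2 tested plasma cell markers Igha was lower (not called at this probe set without Upper-SP replicate 1 or 2). None of 1 erythroid and 2 endothelial markers was called in limma.

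**Figure D5:**
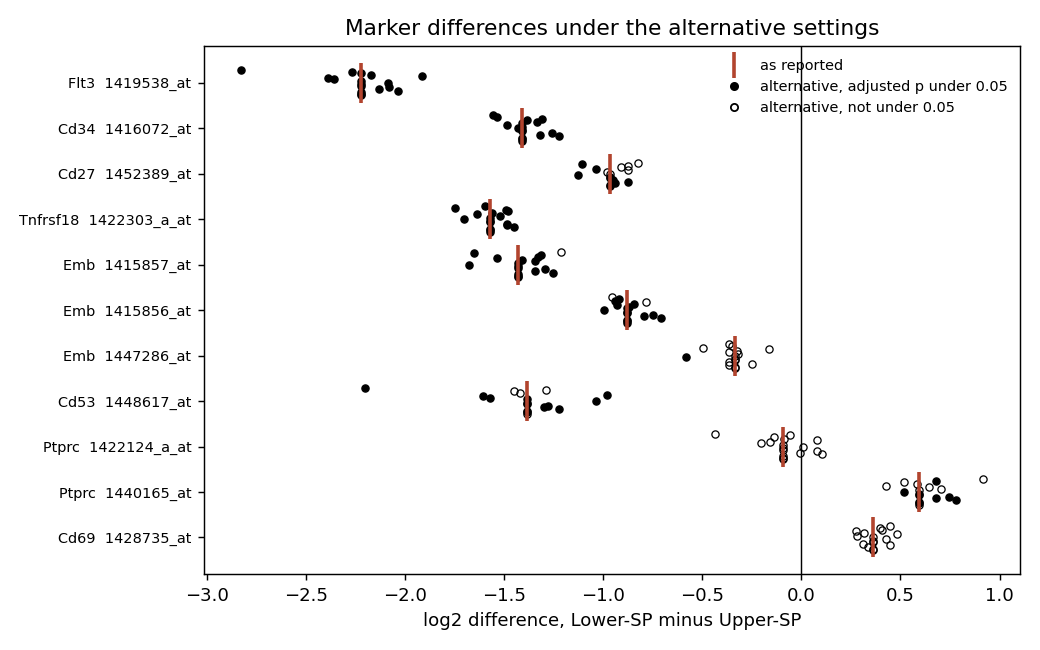
Log2 difference, Lower-SP minus Upper-SP, of each tested marker probe set as reported (red bar) and under each alternative (points, filled where the adjusted p is under 0.05). Flt3, Cd34 and Tnfrsf18 are filled throughout, Cd27, Cd53 and the higher Ptprc probe set are open for 6, 4 and 9 alternatives, and the brightest Ptprc probe set spans 0.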

How the data were processed

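Per the submitters' processing notes, the arrays were processed with GCOS 1.0 and GCRMA. The deposited values are log2 GCRMA summaries, 1 per probe set, already background-corrected and normalized between arrays by the authors. Parameters and a genome build are not given in the sources used here. Per the labels' protocols, RNA was amplified in repeated rounds of in vitro transcription. Such amplification is known to favour the 3' end of transcripts.

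Of 45101 probe sets 64 controls were left out. With the platform annotation, 34945 had 1 gene symbol, 932 several and 9160 none. Groups were compared with limma 3.58.1 in R 4.3.3 (lmFit, then a two-sided moderated test by eBayes with trend, 4 residual and 3.80 prior df) over all probe sets above log2 4 on at least 3 of 6 arrays, with Benjamini-Hochberg adjustment and an adjusted p of 0.05 as threshold. Each gene is represented by the brightest of its tested probe sets. Where a whole group lay under 4, values were set to 4 and the fold is a lower bound. The 9 members and the related and cell type lists (222 genes, 203 annotated) were chosen with earlier results of these data known. From each related list up to 4 called genes with the largest change are named, and, with fewer than 2 called, the next by p. Arrays correlated at 0.952 to 0.991 within and 0.911 to 0.938 between groups across probe sets, and 0 pairs were identical.

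In data simulated for this comparison (19613 probe sets, 200 changed) the fit recovered 17% of changes of log2 1 and 66% of log2 2, and 5.68% of its calls were false. There the spreads were assigned to probe sets at random, and far fewer probe sets changed than the 5520 called in the real data. These shares therefore check the fit and do not give its power or false share for the real data. Alternatives were cyclic loess, centring, quantile normalization, no trend, a robust trend, array weights, a replicate block, a 2-fold minimum, another representative, no filter, a filter at log2 6, a floor at log2 4 and arrays left out.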

Additional observations from a re-analysis of the deposited data

How the results depend on the processing

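The 11 tested marker probe sets gave 7 lower and 1 higher, and 5520 of all probe sets changed. The number of all changed probe sets was 2931 with no filter, 10728 with array weights, 3039 with a 2-fold minimum and 2715 without Lower-SP replicates 1 and 2 together, which leaves 1 Lower-SP array that is assumed to vary like the Upper-SP arrays, and 1666 to 6397 with single arrays left out. With single arrays left out, marker probe sets called lower numbered 4 to 7, where 3.98% to 20.1% of all tested probe sets were lower. Marker genes lower at the brightest probe set then numbered 4 to 6. The number called higher was 0 with no filter, no trend, the 2-fold minimum and without Lower-SP replicates 1 and 2, and 0 to 1 with single arrays left out. Same-numbered arrays did not deviate together (r = -0.051, -0.029 and -0.023 across probe sets), so the numbers were not taken as pairs. With the replicate number as a block 6 marker probe sets and 5 marker genes were lower and 0 higher. In that fit 4180 of all probe sets changed, and 12.7% of all tested were lower. Cd27 (adjusted p = 0.053) and the dimmer Ptprc probe set (0.055) were the marker calls lost in that fit.

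With single arrays left out the brightest Ptprc probe set ran between -0.20 and 0.078, Slamf1 between -0.36 and 0.38, and Procr between -0.13 and 0.0037. The sign turned for the brightest Ptprc probe set with cyclic loess (0.10), quantile normalization (0.076), array weights (0.0079) and without Lower-SP replicate 3 (0.078), for Procr with cyclic loess (0.15), centring (0.038), quantile normalization (0.034) and without Lower-SP replicates 1 and 2 (0.11) or Upper-SP replicate 2 (0.0037), and for Slamf1 with centring (0.042), array weights (0.16) and without Lower-SP replicate 1 (0.026), Lower-SP replicate 3 (0.022) or Upper-SP replicate 2 (0.38). None of these was called in any of the settings tried. The causes were not tested. A filter at log2 6 leaves Cd27, Cd69 and the dimmest Emb probe set out of the test. Signals near log2 4, as in Cd27 and Cd69, leave little room above background, and 3 arrays a group limit the precision.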
